A study of Mus musculus with 17 samples.

Results

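The genes Tpsb2, Tpsab1, Mcpt4, Cma1, Cpa3, Ms4a2, Fcer1a and Hdc, which mark mast cells, were examined in RNA-seq of mouse cell cultures. They are 8 of the 23891 gene symbols listed in the files. The genes were picked from the measured values, because both cultures labelled HSC gave very high values, so the contrast of HSC with the other cell types is a description and was not tested for these genes. Where a gene had several RefSeq transcripts, the transcript with the highest mean over the 17 libraries was used. Values are FPKM, that is mapped fragments scaled for the length of the transcript and for the size of the library.

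The libraries came from 6 cell types. The 2 HSC libraries (haematopoietic stem and progenitor cells, strain C57Bl/6J) were made from lineage-depleted bone marrow cells expanded on E4ORF1-HUVECs, which are human umbilical vein endothelial cells carrying a viral gene, in serum-free medium to which soluble Kit ligand was added at 10 ng/ml. These cultures were depleted of lineage-positive cells again and moved to new feeders every 7 days, and once more before collection. The other libraries were 4 of spermatogonial stem and progenitor cells (SSC; 2 Oct4-GFP, 1 C57Bl/6J, 1 129mix), 6 of multipotent adult spermatogonial-derived stem cells (MASC; 2 Oct4-GFP, 2 129mix, 2 Gt(ROSA26)Sor-lacZ), 2 of embryonic stem cells (ESC; Oct4-GFP and 129mix), 2 of induced pluripotent stem cells (iPS; 129mix, made with doxycycline from E13.5 fibroblasts that carry H3.3B-HA and tetO-4F2A, an inducible OSKM cassette) and 1 of mouse embryonic fibroblasts (MEF; 129mix, from E13.5 embryos of H3.3B-HA mice). SSC, MASC, ESC and iPS lines were grown on MEF feeders, and SSC lines were plated on gelatin before collection to remove residual feeders. MASC and ESC lines were subclones. No label says that the 2 HSC libraries came from separate mice.

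Mast cells arise from haematopoietic progenitors in the bone marrow and depend on Kit, the receptor for Kit ligand, for growth and survival. Their granules hold tryptases, chymases and a carboxypeptidase, bound with histamine to a proteoglycan core. Antigen-bound IgE releases the granules through the high-affinity receptor FcεRI. Tpsb2 and Tpsab1 encode tryptases, Mcpt4 and Cma1 encode chymases, Cpa3 encodes carboxypeptidase A3, Fcer1a and Ms4a2 encode the α and β chains of FcεRI, and Hdc encodes histidine decarboxylase, which makes histamine.

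Of the 8 genes, 6 had an entry in the RefSeq promoter table (GRCm38.p6), namely Mcpt4, Cma1, Cpa3, Ms4a2, Fcer1a and Hdc. The 250 bases before the start of each were searched on both strands for the words AGATAA and AGATAG and the words TGATAA and TGATAG, which GATA factors are known to bind, and for the E-box words CACGTG and CATGTG, which Mitf is known to bind. These factors were chosen because both are known in mast cells. A GATA word stood in 6 of the 6 windows. Over all 32851 windows of that length in the table, 26.5% held a GATA word. Ms4a2 had 3 GATA words, and 6.40% of all windows had at least 2. An E-box word stood in 1 of the 6, that of Fcer1a, against 17.6% of all windows. The words and the genes were not chosen independently of each other's known biology, and a match is a description of letters, not a binding site. The windows shown are those of Mcpt4, Cma1 and Cpa3, the most abundant in HSC of the 6 genes, and of Ms4a2, with 3 words. Tpsb2, the most abundant transcript of HSC.1, had no entry. The sequences of these 4 windows are given on the gene's strand, 5′ to 3′, and capitals mark the GATA words.
Mcpt4, chr14:56062311-56062560, minus strand: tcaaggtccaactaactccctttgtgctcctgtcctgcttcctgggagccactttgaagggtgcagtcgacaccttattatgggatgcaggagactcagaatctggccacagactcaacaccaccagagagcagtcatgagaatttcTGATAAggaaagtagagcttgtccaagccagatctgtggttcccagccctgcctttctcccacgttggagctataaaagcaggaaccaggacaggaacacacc
Cma1, chr14:55944676-55944925, minus strand: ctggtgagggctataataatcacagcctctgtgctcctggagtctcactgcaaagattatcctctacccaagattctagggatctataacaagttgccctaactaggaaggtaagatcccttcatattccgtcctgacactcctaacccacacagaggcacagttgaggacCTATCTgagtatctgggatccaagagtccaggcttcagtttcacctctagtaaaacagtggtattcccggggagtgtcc
Cpa3, chr3:20242182-20242431, minus strand: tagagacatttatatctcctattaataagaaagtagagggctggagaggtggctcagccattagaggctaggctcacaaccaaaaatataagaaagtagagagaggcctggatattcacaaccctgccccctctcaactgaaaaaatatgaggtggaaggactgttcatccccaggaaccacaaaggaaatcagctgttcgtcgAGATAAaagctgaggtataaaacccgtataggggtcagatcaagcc
Ms4a2, chr19:11623720-11623969, minus strand: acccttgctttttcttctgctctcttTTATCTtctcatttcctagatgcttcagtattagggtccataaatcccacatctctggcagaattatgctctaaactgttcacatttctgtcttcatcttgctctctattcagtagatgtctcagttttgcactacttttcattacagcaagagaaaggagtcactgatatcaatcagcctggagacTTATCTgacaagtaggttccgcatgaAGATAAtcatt
The word lay 103 bases before the start of Mcpt4, 79 before that of Cma1 and 46 before that of Cpa3. In Ms4a2 the words began 224, 37 and 11 bases before the start. The words of Fcer1a and Hdc began 92 and 221 bases before the start.

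Before the levels are described, 3 libraries stand apart from the rest. In ESC.1, MASC.2 and SSC.3 all 7 genes other than Hdc were above 0, at a low level. Relative to HSC.1, the 7 genes stood between 0.0331% and 0.0684% in ESC.1, between 0.0713% and 0.0940% in MASC.2 and between 0.0394% and 0.0940% in SSC.3. The percentages therefore spanned 2.07-fold, 1.32-fold and 2.38-fold within each library, although the levels of the same genes in HSC.1 ran from 173 to 25048 FPKM. Relative to HSC.2 they spanned 5.62-fold, 10.6-fold and 7.66-fold. The upper end of these spans was Fcer1a alone, at 0.280%, 0.796% and 0.334% of HSC.2. The remaining genes other than Hdc stood closer together. They lay between 0.0499% and 0.107% of HSC.2 in ESC.1, 0.0749% and 0.153% in MASC.2 and 0.0435% and 0.150% in SSC.3. In the other 12 libraries outside HSC, 81 of the 84 values of these 7 genes were under 0.1 FPKM, 59 were listed at 0 and the highest was 0.665 FPKM. A further 6 transcripts were at 500 FPKM or more in HSC.1 with a median under 0.1 FPKM in the 15 libraries outside HSC. Of these, Mcpt1, Mcpt2, Gzmb and Mpo were above 0 in all 3 libraries, with 0.569, 0.469, 0.521 and 0.242 FPKM in ESC.1, 1.19, 0.679, 0.726 and 0.418 FPKM in MASC.2 and 0.547, 0.317, 0.171 and 0.355 FPKM in SSC.3. The other 2 were microRNA loci, Mir7007 and Mir7058, and were listed at 0 in ESC.1 and MASC.2. In SSC.3 Mir7007 was at 30.1 FPKM and Mir7058 was listed at 0. ESC.1 and MASC.2 are from the Oct4-GFP background and SSC.3 is from C57Bl/6J, the strain of the HSC cultures. The source of these low values was not tested. Given with and without them are the MASC against SSC results of the 8 genes and the counts of other mast cell genes. The differences of the 8 genes between HSC and the other cell types, and the most similar genes, are not given with all 3 libraries left out.

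**Figure D1:**
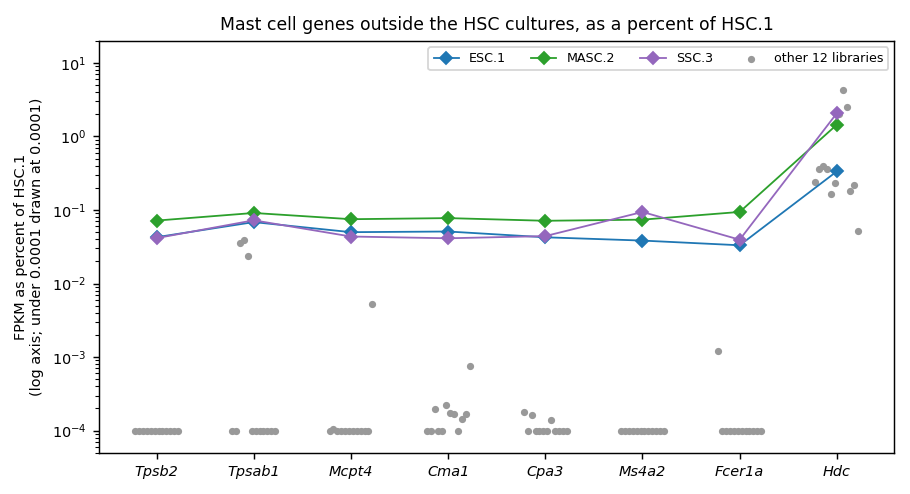
FPKM of each mast cell gene in the 15 libraries outside HSC, as a percent of the value in HSC.1 (log axis; values under 0.0001% drawn at 0.0001%), with diamonds for ESC.1, MASC.2 and SSC.3 and grey points for the other 12 libraries. For 7 genes the diamonds lie between 0.0331% and 0.0940%, above the grey points of the same gene. For Hdc the SSC lines lie between 2.00% and 4.28%, and no diamond lies above all grey points. MASC.2, at 1.45% for Hdc, lies above the other MASC lines.

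The tryptase Tpsb2 (NM_010781, chr17:25503278-25505037 on mm9, whole gene) was listed at 25048 FPKM in HSC.1 and 11721 FPKM in HSC.2, a mean of 18385 ± 9424 (SD, n = 2). It was the most abundant of all transcripts in HSC.1 and the second in HSC.2. Outside HSC it was at 10.7 FPKM in ESC.1, 18.0 in MASC.2 and 10.4 in SSC.3, at 0.00754 in MEF and listed at 0 in the other 11 libraries. The lower HSC value was thus 652 times the highest value elsewhere.

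Tpsab1 encodes a further tryptase of the same cluster (chr17:25480190-25482507), and its more abundant transcript is non-coding in RefSeq (NR_033521). This transcript was at 322 FPKM in HSC.1 and 205 FPKM in HSC.2 (264 ± 82.7, SD, n = 2). The coding transcript NM_031187 was at 73.6 and 69.5 FPKM, or 18.6% and 25.3% of the summed FPKM of the gene. Both transcripts span the same gene, and how reads were shared out between them is an estimate by Cufflinks. Outside HSC, NR_033521 was at 0.220 FPKM in ESC.1 and listed at 0 in ESC.2, both iPS lines and MEF. It ranged from 0 to 0.293 FPKM in MASC, with a median of 0.0958, and stood at 0.233 in SSC.3 and at 0 in the other 3 SSC lines. Tpsb2 was 77.8 times as high as Tpsab1 in HSC.1 and 57.2 times as high in HSC.2, on the FPKM scale.

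The chymase Mcpt4 (NM_010779, chr14:56678581-56681147) was at 12788.5 FPKM in HSC.1 and 12793 FPKM in HSC.2, ranking second and first. The difference between the 2 cultures was smaller than the confidence bounds that Cufflinks gave for either value, which ran from 12743 to 12834 and from 12742 to 12844. It was at 6.38 FPKM in ESC.1, 9.58 in MASC.2, 5.57 in SSC.3 and 0.665 in MEF, at 0.0133 in MASC.1 and listed at 0 in the other 10 libraries. Of the words of 50 bases in its transcript, 6.16% also occurred in Cma2, a further chymase gene, so reads could be shared between these genes. No such word of the other 7 genes occurred in another protein-coding gene.

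Cma1 (NM_010780, chr14:56560288-56563498), a chymase like Mcpt4, was at 12145 FPKM in HSC.1 and 6539 FPKM in HSC.2 (9342 ± 3964, SD, n = 2). Outside HSC it was at 6.19 FPKM in ESC.1, 9.42 in MASC.2 and 5.01 in SSC.3, and at most 0.0917, in MEF, in the other 12 libraries. Cpa3 (NM_007753, chr3:20115515-20142080) was at 10252 FPKM in HSC.1 and 6795 FPKM in HSC.2 (8524 ± 2445, SD, n = 2). It was at 4.36 FPKM in ESC.1, 7.31 in MASC.2 and 4.53 in SSC.3, and at most 0.0184, in ESC.2, in the other 12. Tpsb2, Mcpt4, Cma1 and Cpa3 held the first 4 ranks among 32661 transcripts in both HSC cultures, in a different order in each.

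Fcer1a (NM_010184, chr1:175151402-175157360), the IgE-binding chain, was at 2318 FPKM in HSC.1 and 274 FPKM in HSC.2 (1296 ± 1445, SD, n = 2). HSC.1 was thus 8.46 times HSC.2. Elsewhere it was at 0.767 FPKM in ESC.1, 2.18 in MASC.2 and 0.914 in SSC.3, at 0.0279 in ESC.2 and listed at 0 in the other 11 libraries. Ms4a2 (NM_013516, chr19:11690011-11698209), the β chain, was at 173 FPKM in HSC.1 and 109 FPKM in HSC.2 (141 ± 45.6, SD, n = 2), the lowest mean of the 8 genes. Outside HSC its highest value was 0.163 FPKM, in SSC.3, followed by 0.128 in MASC.2 and 0.0664 in ESC.1. This transcript made up 92.2% of the summed FPKM of Ms4a2 in HSC.1 and 83.3% in HSC.2. Of its other transcripts, NM_001276329 was at 9.26 and 13.4 FPKM and NM_001276330 at 5.43 and 8.40 FPKM.

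Hdc (NM_008230, chr2:126419396-126444414) was the gene with no library listed at 0. It was at 124 FPKM in HSC.1 and 282 FPKM in HSC.2 (203 ± 111, SD, n = 2), so HSC.2 was the higher culture. The SSC lines stood at 2.49, 5.33, 2.58 and 3.12 FPKM. MASC lines ranged from 0.204 to 1.80 FPKM with a median of 0.449, and MASC.2 was the highest of them. The ESC lines were at 0.417 and 0.303, the iPS lines at 0.225 and 0.275 and MEF at 0.0639 FPKM. In HSC.1 terms the SSC lines reached 2.00%, 4.28%, 2.07% and 2.51%, and SSC.3 was not set apart from the other SSC lines.

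**Figure D2:**
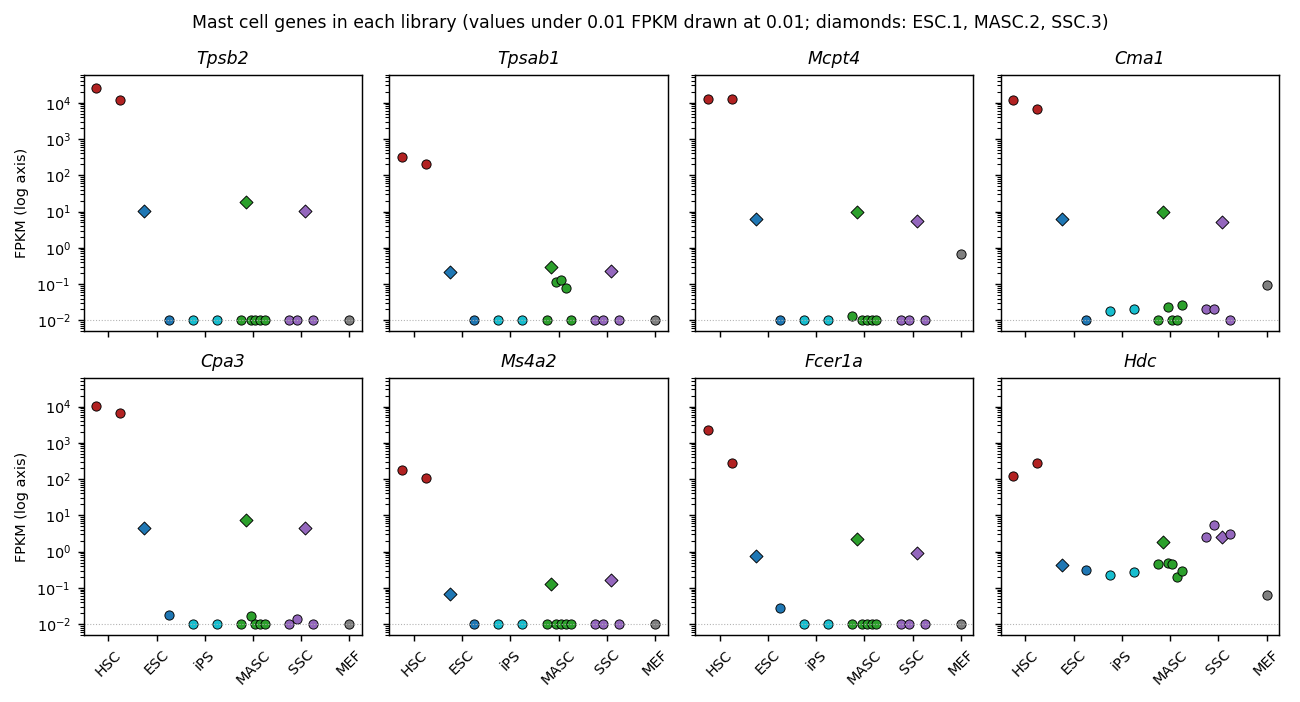
FPKM (log axis) of the 8 mast cell genes in each of the 17 libraries by cell type; each point is 1 library, values under 0.01 FPKM are drawn at 0.01 and diamonds mark ESC.1, MASC.2 and SSC.3. Both HSC points lie above all others for every gene. The diamonds lie above the other lines of their cell type, except that of SSC.3 for Hdc.

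In the order of mean FPKM in HSC, Tpsb2 came first, followed by Mcpt4, Cma1, Cpa3, Fcer1a, Tpsab1, Hdc and Ms4a2. Neighbours in this order overlapped in their HSC values in most cases. The range of Tpsb2 took in both values of Mcpt4, the range of Cma1 took in both of Cpa3, and those of Fcer1a, Tpsab1, Hdc and Ms4a2 overlapped their neighbours. Between Mcpt4 and Cma1 and between Cpa3 and Fcer1a the ranges did not overlap. Together the 8 transcripts made up 8.91% of all FPKM in HSC.1 and 6.75% in HSC.2, or 6.80% and 4.47% of the aligned bases (coverage times transcript length). In the other 15 libraries they made up at most 0.00731% of the FPKM, in MASC.2.

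Both HSC values were above all 15 others for 8 of the 8 genes, which their choice fixes. On the scale of log2(FPKM + 1), the HSC mean exceeded the mean of the other 5 cell types by 13.39 for Tpsb2, 12.96 for Mcpt4, 12.56 for Cma1, 12.56 for Cpa3, 9.45 for Fcer1a, 7.94 for Tpsab1, 7.08 for Ms4a2 and 6.84 for Hdc, with a median of 11.004. Over all 32661 transcripts, 3.55% were called higher and 2.73% lower in HSC (limma, log2 difference of at least 2 and Benjamini-Hochberg adjusted p under 0.05), and nothing is read from the members against this share. Within the strain C57Bl/6J, HSC exceeded SSC.3 by 5.72 for Hdc and by between 6.89 and 10.93 for the other 7 genes. In bulk RNA, more mast cells in a culture and more of this RNA per cell cannot be told apart.

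The 2 HSC cultures differed from each other by more than the Cufflinks bounds for 7 of the 8 genes, Mcpt4 being the exception. HSC.1 was higher by 2.14-fold for Tpsb2, 1.86-fold for Cma1, 1.59-fold for Ms4a2, 1.57-fold for Tpsab1, 1.51-fold for Cpa3 and 8.46-fold for Fcer1a, and HSC.2 was higher by 2.26-fold for Hdc. Over the 1073 transcripts at 100 FPKM or more in either culture, the median ratio of HSC.1 to HSC.2 was 1.33 and the quartiles were 0.987 and 1.76. A ratio as uneven as that of Fcer1a, in either direction, was found for 5.59% of them. With 2 cultures these ratios have no replicate check.

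The contrast of MASC with SSC was not used to choose the genes. SSC lines were kept in SSC medium with glial cell-derived neurotrophic factor and MASC lines in ESC medium with leukaemia inhibitory factor. No SSC line was Gt(ROSA26)Sor-lacZ and no MASC line was C57Bl/6J. Conversion, medium and strain therefore cannot be told apart, and the tests count each MASC subclone as independent. Hdc was lower in all 6 MASC lines than in all 4 SSC lines, by 1.46 ± 0.276 (SE) on the log2(FPKM + 1) scale (limma, Benjamini-Hochberg adjusted p = 0.00156 over all transcripts). The exact two-sided permutation test of the means gave p = 0.00952, the smallest that 6 against 4 lines allow. Over 26 alternative settings the adjusted p stayed between 0.000311 and 0.00912. The difference was under the log2 threshold of 2, so 0 of the 8 genes were called by limma, and 1 had an unadjusted p under 0.05, namely Hdc. With a pseudocount of 0.1, where its difference was -2.50, or a log2 threshold of 1, Hdc was called. Over all transcripts 1.76% were called higher and 2.14% lower in MASC, that is 575 and 699, and with quantile normalization 678 and 547. In a fit without ESC.1, MASC.2 and SSC.3, which leaves 1 ESC library, the Hdc difference was 1.71. Without MASC.2 and SSC.3 the exact permutation p with 5 against 3 lines was 0.0357, again the smallest possible. The highest of all these Hdc values, 5.33 FPKM, is low beside HSC.

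For the other 7 genes the MASC and SSC values overlapped, and limma differences lay between -0.17 for Tpsb2 and 0.06 for Tpsab1 on the log2 scale. For Tpsb2 the SE was 1.06, from a spread pooled over all cell types. In these 10 lines MASC.2 and SSC.3 alone were above 0 for Tpsb2. Without MASC.2 and SSC.3, Tpsb2 and Fcer1a were listed at 0 in all 8 remaining MASC and SSC lines and no value of the 7 genes exceeded 0.127 FPKM. Differences at this level are too near 0 to be read as a change. Read counts were not available, and the Cufflinks bounds of these low values were not examined.

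Beyond the 8 genes, 71 other genes of the mast cell programme were tested for HSC against the other cell types. Of these, 57 (80.3%) were higher and 1 was lower, while 3.55% of all transcripts were higher. Their median log2 difference was 4.09, that over all transcripts was -0.02. Without ESC.1, MASC.2 and SSC.3 the counts were 59 and 1. In the marker lists described below, the share called higher ran from 0% of T cell and B cell markers to 87.5% of megakaryocyte and 100% of pan-haematopoietic markers. A high share is thus not particular to the mast cell lists, and Vav1 is in both a mast cell list and the pan-haematopoietic list. The lists were drawn up with earlier results of these data known and are described by their counts.

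Of the other granule proteases, 7 of 7 rose. Mcpt2 and Mcpt1, chymases of mucosal mast cells, were at 793 and 981 FPKM and at 1461 and 288 FPKM in HSC.1 and HSC.2. Their log2 differences were 9.68 ± 0.198 and 9.13 ± 0.469 (SE; limma adjusted p = 3.77e-12 and 3.22e-08). Gzmb, a granzyme, was at 923 and 509 FPKM. Cma2 was at 441 and 447 FPKM, with the shared words with Mcpt4 given above.

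Of the 13 surface proteins, 12 were higher and 1 was lower. Fcer1g, the γ chain that completes FcεRI and is also used by other myeloid receptors, was at 1476 and 1199 FPKM in the HSC cultures (log2 difference 7.85 ± 0.504, SE; limma adjusted p = 2.75e-07). It was also at 245 FPKM in MEF, the library in which the macrophage gene Lyz2 was at 3336 FPKM. Kit was at 401 and 286 FPKM, and Il1rl1, the receptor for interleukin-33, at 481 and 312 FPKM. Cd63, a granule membrane protein, was at 2274 and 1188 FPKM but reached 1040 FPKM in MEF. Enpp3, a surface marker of basophils and mast cells, was the lower one, at 0.0234 and 0.0811 FPKM in HSC against a median of 18.0 FPKM in the other 15 libraries (limma adjusted p = 3.06e-05).

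In the FcεRI signalling list, 9 of 13 rose and none fell. The adaptors Lat and Lat2 were at 580 and 250 FPKM and at 303 and 195 FPKM, the kinase Btk at 66.8 and 81.8 FPKM and the adaptor Lcp2 at 81.8 and 63.0 FPKM. Fyn, Syk, Plcg1 and Plcg2 were not called, with log2 differences of -1.30, 1.79, 1.28 and 1.81. Fyn and Syk are kinases next to the receptor, and Syk was at 18.2 and 34.4 FPKM in HSC.

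Among genes for granule content, mediators and release, 12 of 16 were called higher. Srgn, the proteoglycan core of the granules, was at 2268 and 728 FPKM. Alox5 and Alox5ap, which start leukotriene synthesis, were at 867 and 169 FPKM and at 751 and 850 FPKM. Tph1, the enzyme for serotonin synthesis, was at 599 and 79.0 FPKM, 7.58 times higher in HSC.1. The 4 genes not called were Ptgs2, Rab27a, Stxbp2 and Snap23.

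Of the cytokine and chemokine genes, 7 of 10 rose. Ccl2 was at 963 and 607 FPKM and Ccl7 at 100.4 and 411 FPKM, while MEF stood at 359 and 276 FPKM for the pair. Ccl3 was at 24.2 and 90.4 FPKM and Tnf at 18.1 and 28.1 FPKM, against 40.1 and 7.10 FPKM in MEF. Ccl4, also called higher, was at 8.20 and 33.6 FPKM in HSC.1 and HSC.2, below the 37.3 FPKM of MEF. Il13 and Csf2 were under 1 FPKM in both HSC cultures and were not called, nor was Ccl1.

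Transcription factors of the mast cell lineage were higher for 10 of 12 genes. Gata2 was at 495 and 375 FPKM (log2 difference 7.30 ± 0.489, SE; limma adjusted p = 4.06e-07), Spi1 at 139.8 and 130.1 FPKM, Lyl1 at 109 and 70.1 FPKM and Gata1 at 64.2 and 37.6 FPKM. Mitf, a factor that mast cells depend on, was at 5.93 and 5.19 FPKM, with a log2 difference of 1.84 that missed the size threshold. Zfpm1, a cofactor of Gata1 that is known to oppose the mast cell fate, was at 5.68 FPKM in HSC.1 and 50.4 FPKM in HSC.2 and was not called.

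**Figure D3:**
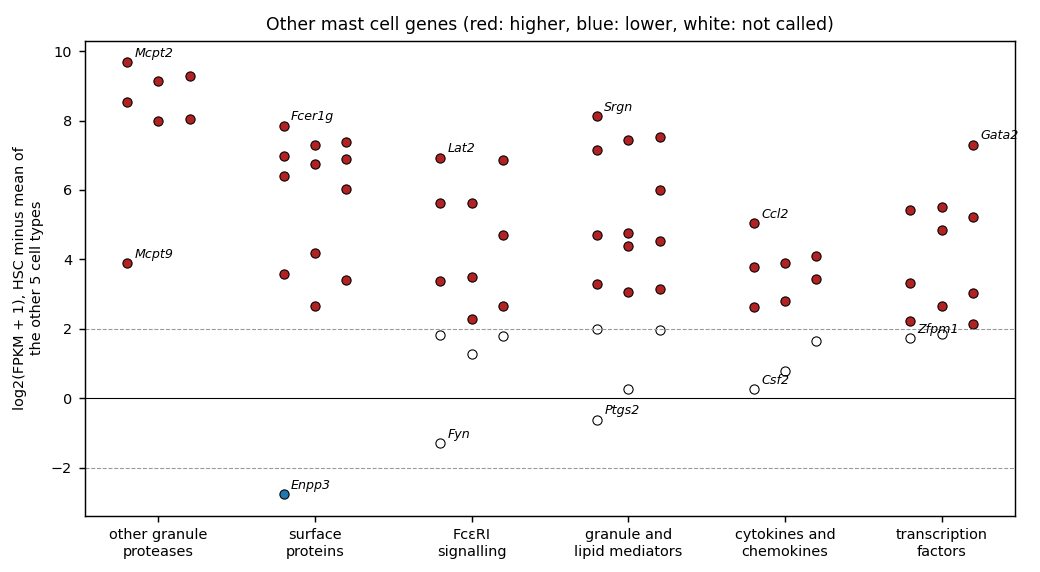
Difference of log2(FPKM + 1) between HSC and the mean of the other 5 cell types for 71 other mast cell genes in 6 lists; each point is 1 gene, red if called higher, blue if lower, white if not called, dashed lines mark a difference of 2 and the highest and lowest gene of each list are named. Of these genes 57 are red and 1, Enpp3, is blue.

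Mcpt4 and Cma1 lie in 1 cluster of chymase and granzyme genes on chromosome 14, and the high values in HSC lay at the ends of it. Cma1, Cma2, Mcpt1, Mcpt9, Mcpt2, Mcpt4, Mcpt8 and Ctsg stand in this order over 158 kb, and all 8 were at 13.4 FPKM or more in both HSC cultures. The next 5 genes, Gzme, Gzmd, Gzmg, Gzmn and Gzmf, were at 0.512 FPKM or less in both, and none was called. Gzmc, at 290.0 kb from Cma1, was at 2.13 and 8.96 FPKM. Gzmb, at 317 kb and the last of the 15, was at 923 and 509 FPKM. In the tryptase cluster on chromosome 17, the neighbours Tpsab1, Tpsb2 and Tpsg1 were high, with Tpsg1 at 387 and 202 FPKM, and Prss34, a basophil protease, was at 37.1 and 165 FPKM. The remaining 7 genes examined on chromosome 17 were under 1 FPKM in both HSC cultures. Among them, Prss28 and Prss29 lie between Prss34 and Tpsab1. Prss33, Prss41, Prss32, Prss30 and Prss27 lie apart from the tryptases, between 23970328 and 24182916, while Prss34 starts at 25435339.

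**Figure D4:**
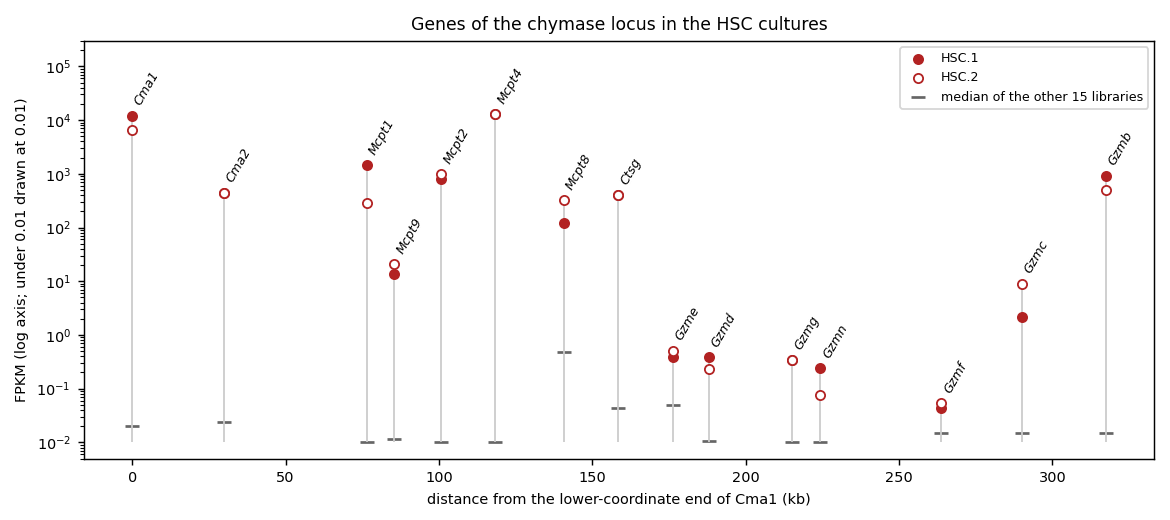
FPKM (log axis; under 0.01 drawn at 0.01) of 15 genes of the chymase cluster against distance in kb from the lower-coordinate end of Cma1, with filled points for HSC.1, open points for HSC.2 and a dash for the median of the other 15 libraries. The first 8 genes are at 13.4 FPKM or more, the next 5 at 0.512 FPKM or less, and Gzmb at the far end is at 923 and 509 FPKM.

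The genes with the most similar pattern were found among 595 genes whose mean in HSC was at least that of Ms4a2. By Pearson's r over the 17 libraries with the mean log2(FPKM + 1) of the 8 genes, the closest were Gzmb (r = 0.990), Mcpt2 (0.989), Mcpt1 (0.989), Tpsg1 (0.987), Ctsg (0.983), Scin (0.982), Mcpt-ps1 (0.980), Mpo (0.979), Itga2b (0.978) and Elane (0.978). Mpo, Elane and Ctsg encode proteases or a peroxidase of neutrophil granules and their precursors, Itga2b an integrin of megakaryocytes and progenitors, Scin an actin-severing protein, and Mcpt-ps1 is a pseudogene of the chymase cluster. These correlations rest on the 2 HSC libraries, which all points share, and are given as a description. Ranked by Spearman's rho, 2 of the 10 stayed among the closest 10.

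The cultures were labelled as haematopoietic stem and progenitor cells, and markers of blood cell types were checked. The pan-haematopoietic genes were higher in 5 of 5 cases, with Laptm5 at 1279 and 811 FPKM, Coro1a at 488 and 246, Cd53 at 64.6 and 56.2 and Vav1 at 41.5 and 44.8. Of 10 markers of stem and progenitor cells, 5 were higher, namely Ly6a (630 and 300.4 FPKM), Gata2, Kit, Cd34 (159 and 72.8 FPKM) and Meis1, and Kit and Gata2 are also in the mast cell lists. Slamf1, a defining marker of stem cells, was at 0.148 and 0.821 FPKM and Mecom at 0.166 and 0.802 FPKM. Flt3, a marker of multipotent progenitors, was at 0.274 and 1.72 FPKM and was not called. A low value in bulk RNA does not show that a rare cell type was absent.

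Markers of other blood lineages were higher in part. Of 4 basophil markers 3 were higher, with Mcpt8 at 120 and 321 FPKM, Prss34 at 37.1 and 165 and Cd200r3 at 45.1 and 40.6 FPKM in HSC.1 and HSC.2. Itga2, the remaining basophil marker, was at 0.183 and 2.19 FPKM and was not called. Of 9 neutrophil granule markers 4 were higher, with Mpo at 612 and 1335 FPKM, Prtn3 at 634 and 392, Elane at 458 and 133 and S100a8 at 551 and 11.9. S100a9, which pairs with S100a8, was at 295 FPKM in HSC.1 and 0.0240 FPKM in HSC.2. Of 8 megakaryocyte markers 7 were higher, with Itga2b at 338 and 232 FPKM, Pf4 at 46.1 and 353, Gp1ba at 114 and 86.8 and Ppbp at 21.3 and 107. Eosinophil markers were higher for 3 of 7, namely Prg2 at 105 and 19.1 FPKM, Siglec5 at 1.51 and 10.7 and Prg3 at 5.36 and 2.06, while Epx, the eosinophil peroxidase, was at 6.75 and 0.364 FPKM and was not called.

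Macrophage markers were higher for 3 of 8, namely Cd5l at 0.0167 and 36.8 FPKM, Cx3cr1 at 27.7 and 6.19 and Csf1r at 8.65 and 17.3. These calls are against the mean of the other cell types. MEF was above both HSC cultures for Cx3cr1, at 28.6 FPKM, and for Csf1r, at 64.4 FPKM. Cd5l in HSC.1 was below the median of the libraries outside HSC, 0.0796 FPKM. The list summed to 301 and 328 FPKM in HSC.1 and HSC.2 and to 3676 FPKM in MEF. Lyz2 at 189.7 and 232 FPKM and Cd68 at 66.1 and 21.7 FPKM were not called. Erythroid markers were higher for 2 of 7, Epor at 10.3 and 11.03 FPKM and Hbb-b1 at 5.44 and 2.82, while Klf1 was at 1.06 and 3.38 FPKM and Hba-a1 at 1.23 and 1.98 FPKM. For T cells and for B cells 0 of 6 were called by limma, with 3 of 6 at an unadjusted p under 0.05 in each list, and the summed level of the 6 was 0.750 and 2.38 FPKM for T cells and 1.75 and 5.55 FPKM for B cells. The highest of the T cell markers were Cd4 (0.243 and 1.52 FPKM), Lck (0.261 and 0.555), Cd8a (0.147 and 0.152) and Cd3d (0.0993 and 0.119). The highest of the B cell markers were Cd79b (1.69 and 5.30 FPKM) and Cd79a (0.0597 and 0.205), with Ms4a1 listed at 0 in HSC.1 and at 0.0104 FPKM in HSC.2. The feeder cells were human endothelial cells. The values come from reads aligned to the mouse genome and are not a measure of the feeders. Mouse endothelial markers were higher for 1 of 6, Pecam1 (42.3 and 19.2 FPKM), which was also at 17.3 FPKM in ESC.1. Tie1 was at 0.316 and 14.1 FPKM, Kdr at 0.0641 and 3.45 and Cdh5 at 0.0242 and 1.15, and Tek was under 0.1 FPKM in HSC.1 and at 1.35 FPKM in HSC.2. The part of these cell types in the levels of the 8 genes was not tested.

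**Figure D5:**
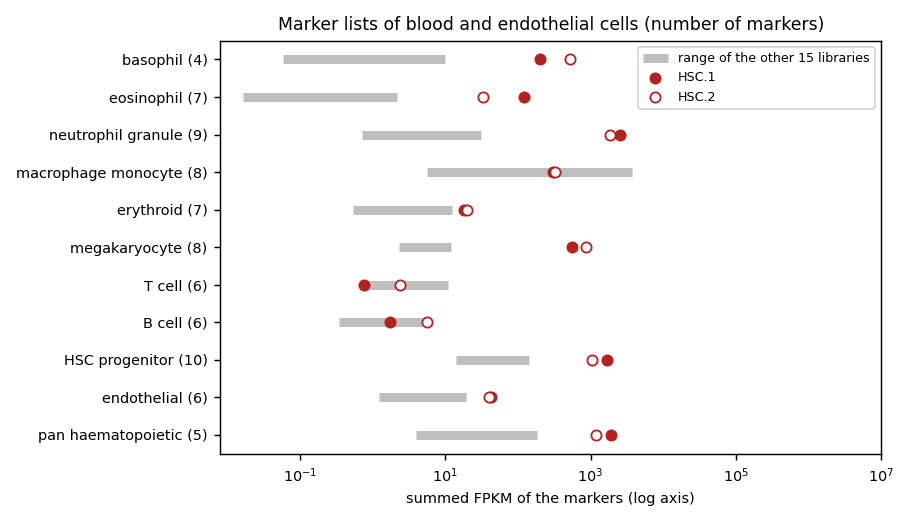
Summed FPKM (log axis) of marker lists for blood and endothelial cells, with filled points for HSC.1, open points for HSC.2 and grey bars for the range of the other 15 libraries; the number of markers stands in brackets. Basophil markers sum to 202 and 528 FPKM and megakaryocyte markers to 550 and 878 FPKM in HSC.1 and HSC.2, eosinophil markers to 120 and 32.7 FPKM, and T cell markers stay at 2.38 FPKM or less.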

How the data were processed

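RNA was sequenced from 17 cultures with Illumina TruSeq libraries. The authors deposited 1 Cufflinks table per sample with an FPKM for each RefSeq transcript, its confidence bounds, and a coverage that is a signal in reads per base. Per the labels and the study's methods, reads were aligned to mm9 with TopHat2 (2.0.11), duplicate and multiply aligned reads were excluded, and Cufflinks was run with upper-quartile and GC normalization; genes with near-identical copies can therefore lose reads. The tables hold no read counts. Coverage at 1 FPKM had a median of 1.26 to 3.23 reads per base, and 13532 to 16272 transcripts per library were at 1 FPKM or more. Row order differed between files, so rows were joined by transcript identifier. Of 33262 rows, 601 further loci of a transcript were left out.

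Groups were taken from the sample titles. Values were tested as log2(FPKM + 1) with limma 3.58.1 in R 4.3.3 over all 17 libraries, with HSC set against the mean of the 5 other cell types and MASC against SSC. Calls required an absolute log2 difference of 2 or more together with a Benjamini-Hochberg adjusted p under 0.05 over 32661 transcripts. P-values measure the spread between these libraries. Exact permutation tests used scipy 1.17.1. On simulated data with 200 transcripts changed by a log2 difference of 4 in HSC, 195 (97.5%) were recovered, with 0 false calls among the unchanged transcripts. Changed transcripts were drawn from those with a mean log2(FPKM + 1) of at least 1, with the same spread in all groups. The simulation did not copy values of 0 in most libraries or uneven HSC cultures. The 8 genes and all gene lists were chosen with earlier results of these data known. Genes were named by rule: the 8 genes, the 4 of each list highest in HSC, defining markers under 1 FPKM, and the 10 genes of most similar pattern; further genes of a list (Enpp3, Zfpm1, Mitf, S100a9, those not called and those of the 2 clusters) were named after their values were seen. A marker that this rule names is not reported here. Positions are those of the files on mm9, counted from 1, except promoters, which are on GRCm38.p6.

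Results were recomputed with a pseudocount of 0.1, with a filter for 1 FPKM in at least 2 libraries, after quantile normalization, at a log2 difference of 1, with an eBayes trend, with FPKM summed per gene, with all rows, with a replicate block, without MEF, without each library and, chosen after seeing the data, without ESC.1, MASC.2 and SSC.3.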

Additional observations from a re-analysis of the deposited data

Results flagged for a closer look

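A library stood far from the others of its group for 14 of the 16 combinations of a mast cell gene with MASC or SSC. This used Dixon's test on log2(FPKM + 1) at the 95% level. Where all other lines of a group were at 0, any value above 0 is flagged, so the usual chance rate of 1 in 20 does not hold. The genes are also not independent of each other. All 14 concerned MASC.2 or SSC.3. In MASC.2 the values were 18.0 FPKM for Tpsb2, 9.58 for Mcpt4, 9.42 for Cma1, 7.31 for Cpa3, 0.128 for Ms4a2, 2.18 for Fcer1a and 1.80 for Hdc. In SSC.3 they were 10.4 FPKM for Tpsb2, 0.233 for Tpsab1, 5.57 for Mcpt4, 5.01 for Cma1, 4.53 for Cpa3, 0.163 for Ms4a2 and 0.914 for Fcer1a. The combinations without such a library were Tpsab1 in MASC and Hdc in SSC. The ESC group, with 2 lines, could not be tested in this way. The source of these values was not tested.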

How the results depend on the processing

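With a pseudocount of 0.1, 1961 transcripts were higher and 2476 lower in HSC, 1285 were higher and 1992 lower in MASC than in SSC, 1 of the 8 genes (Hdc, by -2.50) was called between MASC and SSC, and the median difference of the 8 genes between HSC and the other cell types was 13.68; the pseudocount sets the floor for genes near 0. With a log2 difference of 1, the counts were 2726, 2869, 1998 and 3190, Hdc was called, at -1.46, and 2 other mast cell genes, Enpp3 and Fyn, were lower in HSC. Within C57Bl/6J the median difference was 9.62, the comparison library being SSC.3. By Spearman's rho, 2 of the 10 most similar genes stayed. With 1 library left out in turn, the count of other mast cell genes lower in HSC ranged from 1 to 2; it was 2, Enpp3 and Fyn, without HSC.2. Those higher in HSC ranged from 53 to 59, and the median difference of the 8 genes from 10.01 to 11.92. The 0 calls of the 8 genes between MASC and SSC held in each of these fits. Same-numbered MASC and SSC lines deviated from their group means with correlations of 0.185, -0.225, -0.219 and 0.135. Lines of different number were not compared in this way, so these values cannot decide whether the numbers pair lines. With a replicate block, 1071 transcripts were higher and 817 lower in HSC, 559 and 655 in MASC, and Hdc differed by -1.30 (limma adjusted p = 0.00816, within 0.000311 to 0.00912 over all alternatives). Filtering, quantile normalization, a trend, summed FPKM, all rows, no MEF and the removal of ESC.1, MASC.2 and SSC.3 kept each count within 1.5 times. That there were 2 HSC cultures and 1 MEF library limits every statement on HSC.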

Other observations

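Ms4a2 belongs to a family of genes for membrane proteins with several neighbours on the same chromosome. Apart from Ms4a2, which was picked for its level in HSC, Ms4a3, a gene of basophils and granulocyte precursors, was called higher in HSC, at 97.5 and 79.5 FPKM (log2 difference 6.45 ± 0.0699, SE; limma adjusted p = 6.78e-15). Ms4a1, which encodes the B cell antigen CD20, was at 0 and 0.0104 FPKM. Ms4a7, a macrophage gene, was under 0.1 FPKM in HSC.1 and at 6.77 FPKM in HSC.2, against 51.7 FPKM in MEF.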
